A study of Mus musculus with 6 samples.

Results

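Growing oocytes are the egg cells that enlarge inside the ovarian follicle while arrested in meiosis and fill their cytoplasm with transcripts for later use. The transcriptome of wild-type (WT) growing oocytes was described here from 3 samples, all the samples labelled PABPN1-WT out of 6 in the study, and no genotypes were compared. Each WT sample held 10 oocytes of the C57BL/6 strain (C57BL/6J in the methods), and the study's methods name littermates as the controls of a Pabpn1fl/fl;Gdf9-Cre deletion that acts in oocytes. The age of the mice, the alleles that the WT littermates carried and whether each sample came from a separate mouse are not given in the sources used here, so the spread between samples may be technical in part. RNA was captured through its poly(A) tail with oligo-dT primers and amplified with the Smart-seq2 protocol, so a level counts polyadenylated transcripts, and fewer molecules cannot be told apart from shorter poly(A) tails. Levels are FPKM, fragments scaled to transcript length and to the number of mapped fragments, which allows transcripts of different genes to be set side by side per length.

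The deposited table listed 23235 gene symbols. After 748 rows of short RNA genes had been left out, 22487 symbols remained. Values per sample are given below in the order of replicates 1, 2 and 3. The summed level was 718040, 661905 and 703896 FPKM. The depth of each sample is not in the table, but its lowest values rose in steps of single reads. Among 2042 symbols under 0.5 FPKM in every sample, the commonest ratio of replicate 1 to replicate 2 was 1.37 and that of replicate 1 to replicate 3 was 1.65, so 1 read was worth the most in replicate 1, the shallowest sample, and the least in replicate 3, the deepest.

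An oocyte at this stage transcribes its genome strongly and keeps many of the messages dormant, bound by storage proteins, because transcription stops before ovulation and the egg and early embryo then depend on the stock. The growing oocyte also secretes the zona pellucida, the coat that sperm bind, and growth factors that act on the surrounding granulosa cells. FIGLA, a basic helix-loop-helix transcription factor known to activate the zona pellucida genes, binds the E-box, a short element with the letters CANNTG. The promoters of 4 oocyte genes and of the second most abundant transcript, Ldhb, are shown here to set windows with E-boxes beside one without. Bmp15, Ooep and Nlrp5, whose windows held 1, 1 and 2 E-boxes, are not printed. Sequences are from RefSeq on GRCm38.p6 and run from 250 bases before the annotated start to 50 bases after it, with CANNTG in capitals. Zp3 (chr5:135979855-135980154, plus strand), Figla (chr6:86016941-86017240, plus strand), Btg4 (chr9:51115751-51116050, plus strand), Oosp1 (chr19:11691002-11691301, minus strand) and Ldhb (chr6:142507908-142508207, minus strand) are each written along the gene's own strand.
Zp3: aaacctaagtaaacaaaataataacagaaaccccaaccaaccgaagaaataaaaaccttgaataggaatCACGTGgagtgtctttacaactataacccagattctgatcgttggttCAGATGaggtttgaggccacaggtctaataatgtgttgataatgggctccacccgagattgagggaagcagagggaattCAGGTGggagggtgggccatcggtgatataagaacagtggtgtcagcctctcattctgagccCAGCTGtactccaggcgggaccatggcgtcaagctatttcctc
Figla: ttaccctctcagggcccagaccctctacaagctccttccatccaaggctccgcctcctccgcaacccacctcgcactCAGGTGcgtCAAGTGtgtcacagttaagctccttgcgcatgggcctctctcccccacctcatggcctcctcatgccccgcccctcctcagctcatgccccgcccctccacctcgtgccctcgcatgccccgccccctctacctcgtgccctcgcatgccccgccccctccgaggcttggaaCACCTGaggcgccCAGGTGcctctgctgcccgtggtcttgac
Btg4: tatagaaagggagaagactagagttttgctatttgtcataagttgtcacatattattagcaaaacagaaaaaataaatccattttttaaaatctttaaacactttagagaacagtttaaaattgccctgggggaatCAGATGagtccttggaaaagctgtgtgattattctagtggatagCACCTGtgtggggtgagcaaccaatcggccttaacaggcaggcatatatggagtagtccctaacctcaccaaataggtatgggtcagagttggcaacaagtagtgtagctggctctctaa
Oosp1: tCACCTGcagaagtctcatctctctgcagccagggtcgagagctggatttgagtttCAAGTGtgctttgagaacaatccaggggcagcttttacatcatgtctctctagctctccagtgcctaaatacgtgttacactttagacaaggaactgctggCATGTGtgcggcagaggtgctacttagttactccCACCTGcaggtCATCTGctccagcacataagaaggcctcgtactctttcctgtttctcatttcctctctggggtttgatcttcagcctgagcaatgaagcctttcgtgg
Ldhb: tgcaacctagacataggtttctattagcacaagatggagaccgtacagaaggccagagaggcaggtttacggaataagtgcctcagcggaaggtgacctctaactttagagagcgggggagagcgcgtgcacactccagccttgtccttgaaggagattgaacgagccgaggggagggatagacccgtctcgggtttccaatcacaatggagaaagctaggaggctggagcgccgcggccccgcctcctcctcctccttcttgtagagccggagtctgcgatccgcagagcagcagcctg

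The Zp3 window held 4 E-boxes, at 181, 134 and 55 bases before the start and at 7 bases after it. The Oosp1 window held 5, the Figla window 4, the Btg4 window 2 and the Ldhb window 0. Because CANNTG reads the same on both strands, 1 search covered both. It was present in 68.6% of all 15673 promoters of this length, so a single match is common. Among the members of the oocyte lists with a promoter in the table, 72 of 89 (80.9%) held it, compared with 43 of 66 (65.2%) of the 100 highest transcripts and 75.6% of the promoters of symbols listed at 0. The number of CG dinucleotides separated these sets more widely. A window had at least 15 CG in 69.7% of symbols above 1 FPKM and in 11.3% of symbols listed at 0. The share was 74.3% for ranks 101 to 1000 and 51.5% for the 100 highest, and 32.6% for the oocyte lists, whose median was 5 CG against 21 in symbols above 1 FPKM. Btg4 had 1 CG, Oosp1 had 5 and Zp3 had 7, while Figla had 16 and Ldhb had 17. A TATA element with the letters TATAAA, searched on both strands, was found in 12.9% of all promoters, in 7.36% of those above 1 FPKM and in 25.3% of those listed at 0. These matches describe letters in a window and not binding.

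All 6 oocyte markers used to check the label were well above 1 FPKM, the filter of the study's methods. Zp3, which encodes a protein of the zona pellucida, was at 4851, 3494 and 4052 FPKM and ranked 10 of all symbols. Gdf9, a growth factor that the oocyte sends to granulosa cells, was at 4001, 3177 and 4569 FPKM, and its partner Bmp15 was at 595, 1078 and 711 FPKM. Gdf9 was above Bmp15 in each sample, and Bmp15 was highest in replicate 2 where Gdf9 was lowest. Btg4, an adaptor that recruits the CCR4-NOT deadenylase to maternal mRNA, was at 2471, 2334 and 2702 FPKM. Nlrp5, a member of the subcortical maternal complex, was at 347, 339 and 173 FPKM. Figla was at 264, 214 and 204 FPKM. The effector genes Zp3 and Gdf9 were thus more than 10 times above the regulator Figla, and replicate 3 had the lowest Nlrp5.

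The 25 highest transcripts held 13.7% of the summed FPKM, the 100 highest 28.5% and the 1000 highest 71.1%, and 345 symbols made up 50% of it. Protein-coding genes contributed 95.8%. The highest level was that of Gm15698, an elongin B-like gene named Elobl in RefSeq, at 7613, 7426 and 6374 FPKM. Ldhb, the heart-type subunit of lactate dehydrogenase that interconverts lactate and pyruvate, was at 7940, 5946 and 6616 FPKM. E330017A01Rik (Ftdc2 in RefSeq) was at 7007, 6113 and 6916 FPKM and Gm813 (Ftdc1) at 4712, 4870 and 4808 FPKM. The order among the first 3 was not resolved, since their samples overlapped. Tlcd2 followed at 4689, 4912 and 5802 FPKM.

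**Figure D1:**
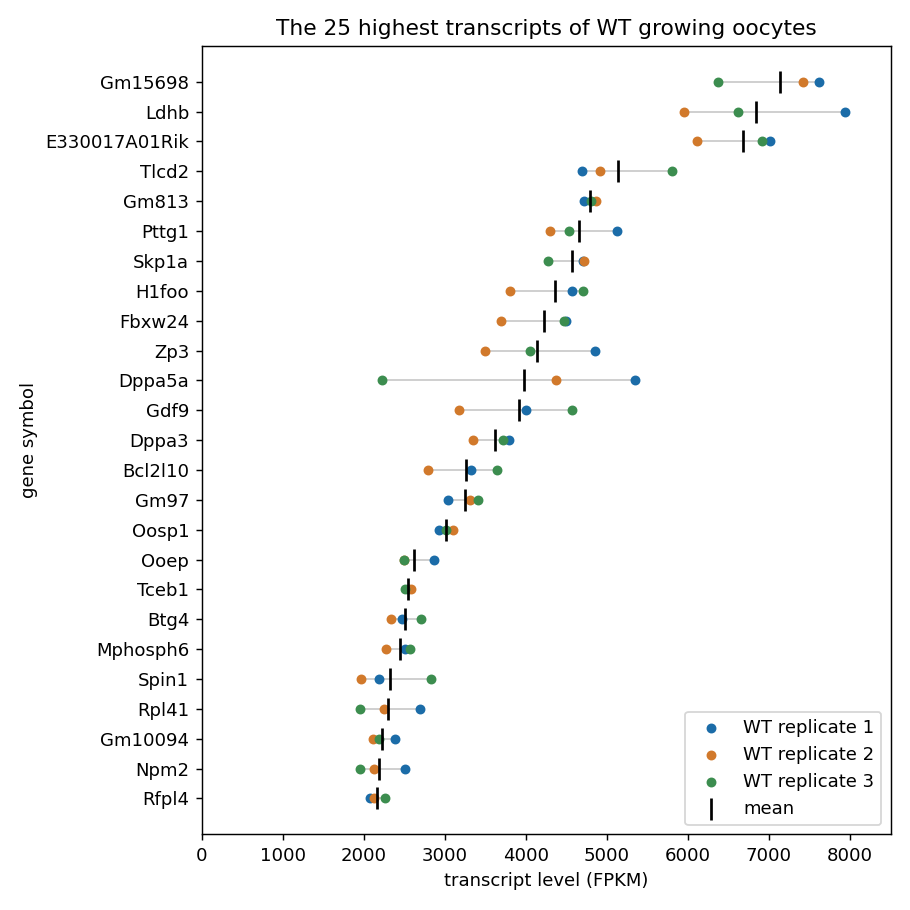
Levels of the 25 highest transcripts in the 3 WT samples (horizontal axis, FPKM, from 0); coloured points are samples, grey lines join lowest and highest, and black ticks are means. The samples of Dppa5a lie farthest apart, from 2222 to 5342 FPKM, while those of Gm813 and Tceb1 nearly coincide.

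Among the 25 highest transcripts, Pttg1, the securin that inhibits the protease separase until anaphase, was at 5123, 4297 and 4537 FPKM. Skp1a, the adaptor of SCF ubiquitin ligases, was at 4702, 4722 and 4267 FPKM, and Fbxw24, of the F-box family that binds SKP1, at 4491, 3694 and 4476 FPKM. Tceb1, which encodes elongin C, was at 2538, 2583 and 2511 FPKM. The samples of Pttg1, Skp1a and Fbxw24 overlapped, and Tceb1 lay below all 3.

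Also in this group, H1foo, the linker histone of the oocyte, was at 4564, 3806 and 4706 FPKM. Dppa3, which protects the maternal genome from demethylation in the zygote, was at 3795, 3341 and 3714 FPKM, and Npm2, a histone chaperone of the egg, at 2503, 2119 and 1948 FPKM. Bcl2l10, of the BCL2 family, was at 3328, 2794 and 3646 FPKM, and Spin1, a reader of histone methylation, at 2183, 1961 and 2824 FPKM. The samples of Dppa3 and Bcl2l10 overlapped, as did those of Npm2 and Spin1. Dppa5a, an RNA-binding protein gene also active in pluripotent cells, was at 5342, 4367 and 2222 FPKM, with a coefficient of variation (CV, the SD as a percentage of the mean) of 40.1%. It was the least even of the 25 transcripts, because of its low value in replicate 3.

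Of the 100 highest transcripts, 7 were Fbxw genes, 7 encoded cytosolic ribosomal proteins, 6 belonged to the respiratory chain or ATP synthase, and 13 had names of the kind Gm, Rik or clone accession. Neighbouring genes were frequent. Among the 97 of these transcripts with a position in the mm9 annotation, 20.6% lay within 100 kb of another member of the 100, whereas the share was 2.02% to 8.42% in the 9 blocks of 100 symbols from rank 101 to 1000. The largest cluster, on chromosome 9 of mm9 from 109041968 to 109605214, held 7 Fbxw genes (Fbxw15, Fbxw16, Fbxw18, Fbxw19, Fbxw21, Fbxw24 and Fbxw28). A cluster on chromosome 4 from 143027067 to 143803221 held 5 (Oog3, Oog4, Gm13023, Gm13084 and C87977, of which RefSeq names the last 3 as PRAME-like genes). On chromosome 19, from 11721769 to 11786364, lay 3 oocyte-secreted protein genes, Oosp1, Plac1l (Oosp2) and Gm97 (Oosp3). Omt2b, Dppa5a and Ooep lay on chromosome 9 from 78175396 to 78226532. Members of such families share sequence, and only uniquely mapped reads were counted, so their levels are uncertain.

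The 113 genes of the oocyte lists had a median of 254 FPKM, whereas the median of all symbols was 0.914 FPKM. Of these genes, 108 (95.6%) exceeded 1 FPKM, compared with 49.3% of all symbols, and 32 were among the 100 highest transcripts. The lists were written from known oocyte genes, so a high level was what their choice aimed at. In all, the oocyte lists made up 12.0% of the summed FPKM.

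**Figure D2:**
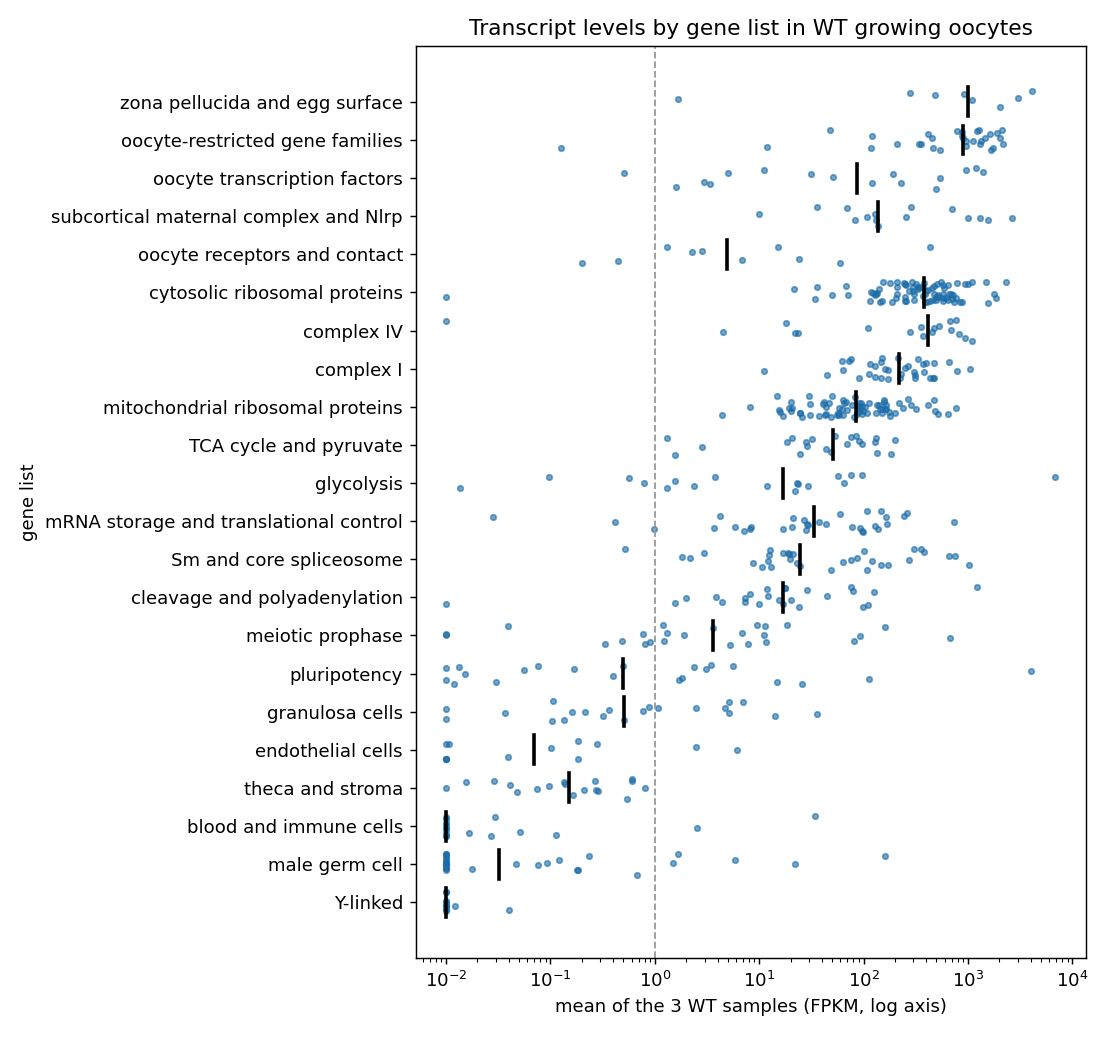
Mean level of each gene (points, FPKM on a log axis, values under 0.01 drawn at 0.01) by gene list, with the list's median as a black bar and 1 FPKM as a dashed line. Zona pellucida and oocyte-restricted families lie at the high end and Y-linked and blood genes at the low end, while glycolysis spans the axis because of Ldhb.

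Egg coat and egg surface genes had the highest median of all lists, 1005 FPKM over 8 genes. Beside Zp3, the coat proteins Zp2 and Zp1 were at 2255, 1923 and 1876 FPKM and at 1268, 834 and 1180 FPKM. The order Zp3, Zp2 and Zp1 held in every sample, with no overlap between neighbours. Oosp1, a secreted oocyte protein, was at 2927, 3094 and 3008 FPKM. Cd9, the tetraspanin needed for fusion with sperm, was at 1056, 892 and 798 FPKM, Astl, the protease that cleaves ZP2 after fertilization, at 559, 391 and 510.1 FPKM, and Folr4, the egg receptor Juno, at 278, 241 and 313 FPKM. All 3 overlapped neither each other nor the zona genes, except Cd9 with Zp1.

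Secreted factors differed by more than 100-fold. Beneath Gdf9 and Bmp15, Tgfb2 was at 128, 142 and 164 FPKM and Fgf8, a signal to cumulus cells, at 131, 94.5 and 138 FPKM, with overlap between them. Bmp6 was even across samples at 17.05, 17.5 and 17.1 FPKM. Receptors and contact proteins were lower, with a median of 4.87 FPKM over 10 genes. Gja4, the connexin of the gap junction between oocyte and granulosa cells, was the exception at 485, 357 and 467 FPKM. Kit, the receptor for the granulosa ligand Kitl, was at 56.7, 71.9 and 48.2 FPKM, and Gpr3, which keeps cAMP high during arrest, at 13.4, 15.2 and 17.2 FPKM. Insr, the insulin receptor, was at 0.199, 0.209 and 0.189 FPKM.

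Transcription factors of the oocyte spread over a wide range. Obox5 and Obox2, homeobox genes of the oocyte, were at 1243, 1313 and 1611 FPKM and at 938, 755 and 1882 FPKM, and replicate 3 was highest for both. Nobox was at 533, 403 and 561 FPKM and Lhx8 at 127, 121 and 115 FPKM, both regulators needed for early follicle growth. Sohlh1 and Sohlh2, which act earlier in follicle formation, were at 10.1, 1.77 and 3.31 FPKM and at 2.66, 2.02 and 5.51 FPKM. Foxo3, which restrains follicle activation, was at 2.16, 1.24 and 1.34 FPKM, and Obox6 at 0.705, 0.441 and 0.366 FPKM. Of the 16 factors, 15 exceeded 1 FPKM and 8 exceeded 100 FPKM, with a median of 85.9 FPKM.

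All 15 genes of the subcortical maternal complex and Nlrp list exceeded 1 FPKM. This assembly lies under the oocyte surface and is needed for early cleavage. Ooep was at 2866, 2491 and 2491 FPKM, Zbed3 at 1561, 1752 and 1357 FPKM, and Padi6 at 1456, 1231 and 1259 FPKM. Nlrp14 was at 1006, 1197 and 769 FPKM and Tle6 at 745, 558 and 800 FPKM, while Nlrp4c, the lowest, was at 10.0, 13.1 and 6.80 FPKM. Replicate 3 was the lowest sample for 10 of the 15 genes and replicate 2 the highest for 10. The oocyte-restricted families had another order. Of 30 members above 1 FPKM in every sample, 21 were highest in replicate 3 and 23 were lowest in replicate 2. Among them Rfpl4 was at 2079, 2126 and 2266 FPKM, Tcl1 at 2118, 1652 and 2339 FPKM and Fbxw15 at 2183, 1672 and 2495 FPKM, whereas Rfpl4b was at 0.134, 0 and 0.244 FPKM. The median transcript was 3294 bases long in the first list and 1677.5 bases in the second. Coding symbols above 1 FPKM in every sample serve as a background. Of those with 2499 to 3414 bases, 40.9% were highest in replicate 2 and 42.4% lowest in replicate 3. For 1648 to 2498 bases, 17.8% were highest in replicate 2, 32.7% were highest in replicate 1 and the rest were highest in replicate 3. In that length group 24.5% were lowest in replicate 3. The share lowest in replicate 2 was not computed, so the 23 genes of the second list have no matching background. The order of the samples by transcript length is given below, and the part of length in these counts was not tested.

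Meiotic genes divided by stage. Mos, the kinase that arrests the mature egg, was at 975, 723 and 964 FPKM, and Ccnb1, the cyclin B of M-phase entry, at 662, 655 and 970.3 FPKM. Aurkc, the Aurora kinase of germ cells, was at 380, 307 and 531 FPKM, and Mad2l1, of the spindle checkpoint, at 364, 316 and 377 FPKM. Of 31 genes of meiotic arrest and resumption, 30 exceeded 1 FPKM and the median was 51.0 FPKM. Pde3a, the phosphodiesterase that lowers cAMP at resumption, was low at 1.85, 1.81 and 3.21 FPKM, and Adcy3, an adenylyl cyclase, was at 0.110, 0.0402 and 0.150 FPKM.

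Genes of the earlier recombination stage had a median of 3.65 FPKM, and 17 of 25 exceeded 1 FPKM. Some structural genes were still abundant. Syce2, of the synaptonemal complex central element, was at 702, 661 and 639 FPKM, and Sycp3, of the lateral element, at 98.0, 84.1 and 63.2 FPKM. Spo11, which makes the meiotic breaks, was at 0, 0.119 and 0 FPKM, and Stra8, which starts meiosis, and Rec8, the meiotic cohesin, were listed at 0 in every sample. Since Rec8 protein is known to hold oocyte chromosomes together throughout arrest, its listing at 0 gives a transcript value only, and a failed estimate cannot be told apart from absence.

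Early germ cell genes differed widely in level. Dazl, a translational regulator, was at 203, 289 and 248 FPKM, Mael, of the piRNA pathway, at 137, 94.3 and 97.2 FPKM, and Asz1 at 95.0, 102 and 139 FPKM. Ddx4, the vasa helicase, was at 71.5, 75.9 and 40.3 FPKM. Nanos2, known for its role in male germ cells, was at 54.9, 64.4 and 77.2 FPKM, whereas Nanos3 was at 0, 0.158 and 0 FPKM. Of the piwi genes, Piwil2 was at 4.04, 4.44 and 1.69 FPKM, Piwil1 at 0.884, 2.49 and 1.86 FPKM and Piwil4 at 0, 0.103 and 0 FPKM. In total 19 of 24 genes exceeded 1 FPKM, with a median of 5.20 FPKM.

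Pluripotency genes were uneven. Dppa2 was at 113, 106 and 122 FPKM, Esrrb at 28.9, 29.6 and 18.2 FPKM and Nanog at 6.93, 4.19 and 5.87 FPKM, while Sox2 stayed under 1 FPKM at 0.405, 0.702 and 0.368 FPKM. Pou5f1, in the transcription factor list, was at 32.9, 29.1 and 32.5 FPKM. Tdgf1 and Utf1 were listed at 0 in every sample. Including Dppa5a, 10 of 21 genes exceeded 1 FPKM. Of 19 genes that mark activation of the zygotic genome, 5 exceeded 1 FPKM. Arg2, a mitochondrial arginase, was at 577, 486 and 642 FPKM and Sp110 at 512, 505 and 573 FPKM, while Dux, Tcstv1, Tcstv3, Tdpoz3, Zscan4b and Gm4340 were listed at 0. Most of that list was therefore at or near 0 and its leading members were present at levels of the abundant maternal genes.

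Imprint and DNA methylation genes showed the maintenance machinery above most of the writers and erasers. Zfp57, which guards imprints, was at 541, 458 and 629 FPKM. Dnmt1, the maintenance methyltransferase, was at 261, 274 and 172 FPKM, and its partner Uhrf1 at 208, 239 and 131 FPKM. Dnmt3l, which has no catalytic activity and stimulates Dnmt3a, was at 63.0, 60.3 and 112 FPKM. Dnmt3a was even at 14.8, 14.5 and 14.5 FPKM, and Dnmt3b was below it in every sample at 2.18, 3.47 and 1.74 FPKM. Tet3, which oxidizes methylcytosine in the zygote, was at 63.4, 101 and 51.1 FPKM.

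Housekeeping transcripts did not stand at a common level. Ubb, a polyubiquitin gene, was at 2088, 1543 and 1917 FPKM, and Ppia, cyclophilin A, at 1258, 1001 and 822 FPKM. Psmb2, a proteasome subunit, was at 868, 710.3 and 787 FPKM and Eef1a1, the elongation factor, at 830.5, 670 and 659 FPKM. The reference genes Actb and Gapdh were lower, at 223, 176 and 136 FPKM and at 71.0, 45.6 and 54.9 FPKM, with ranks of 768 and 1988. Tfrc, the transferrin receptor, was at 3.58, 5.07 and 3.12 FPKM, Polr2a, the largest subunit of RNA polymerase II, at 1.49, 1.31 and 1.02 FPKM, and Gusb, the lysosomal glucuronidase, at 0.304, 0.0739 and 0.153 FPKM. Of 27 such genes, 26 exceeded 1 FPKM and the median was 101 FPKM.

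The cytosolic ribosomal proteins had a median of 383 FPKM, and 82 of 83 exceeded 1 FPKM. Rpl41 was at 2686, 2247 and 1958 FPKM, Rpl39 at 1870.4, 1836 and 1879 FPKM and Rps29 at 2023, 1604 and 1702 FPKM. Rpl3l, the muscle paralog, was listed at 0, and Rpl10l was at 26.7, 21.0 and 16.6 FPKM. The subunits are needed in equal numbers, but Rps15a, a protein of the small subunit, was listed at 32.6, 33.6 and 35.7 FPKM, far below Rpl41. Ribosomal protein genes have many processed pseudogenes that share reads with them. Of the 82 genes above 1 FPKM in every sample, 73 were highest in replicate 1. Among coding symbols of up to 1647 bases above 1 FPKM in every sample, the share was 50.8%.

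Nuclear genes of the respiratory chain had high medians and some low members. Complex I, the entry point for electrons from NADH, had a median of 219 FPKM over 36 genes, complex III 316 FPKM over 9, complex IV 413 FPKM over 18 and ATP synthase 347 FPKM over 16. Atp5e was at 1423, 1132 and 1071 FPKM, Cox6c at 1227, 1058 and 1002 FPKM and Ndufa4 at 1184, 995 and 980.2 FPKM. Replicate 1 was the highest sample for all 3. Tissue-restricted subunits differed. Cox6b2, of the testis, was at 427, 317 and 329.9 FPKM, whereas Cox7a1, of the muscle, was at 5.61, 4.61 and 3.40 FPKM and Cox8b was listed at 0. Ndufs1, a core subunit of complex I, was the lowest of that complex at 9.91, 13.2 and 10.6 FPKM. The 13 proteins encoded by mitochondrial DNA had no rows and are not analysed here.

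Genes of the citric acid cycle had a median of 51.1 FPKM and those of mitochondrial DNA maintenance and dynamics 28.4 FPKM, below the respiratory complexes. Brp44l, a subunit of the mitochondrial pyruvate carrier, was at 212, 192 and 193 FPKM and Pdhx, of the pyruvate dehydrogenase complex, at 161, 160.5 and 225 FPKM. Idh2 and Pcx were at 2.21, 1.67 and 0.784 FPKM and at 1.45, 1.59 and 0.893 FPKM. Tfam, which packages mitochondrial DNA, was at 27.0, 27.0 and 19.3 FPKM, and Ppargc1a, a coactivator of mitochondrial biogenesis, at 0.237, 0.199 and 0.287 FPKM. The 76 mitochondrial ribosomal proteins all exceeded 1 FPKM and had a median of 85.0 FPKM, from Mrpl19 at 4.47, 5.87 and 3.02 FPKM to Mrps36 at 815, 703 and 800.2 FPKM.

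Glycolysis contrasted with respiration. Oocytes are known to take up pyruvate made by granulosa cells and to use little glucose. Apart from Ldhb, the highest gene of the list was Pkm2, pyruvate kinase, at 105, 82.0 and 102 FPKM, followed by Aldoa, aldolase A, at 93.0, 66.2 and 67.8 FPKM. Hk1 and Hk2, the hexokinases that start the pathway, were at 0.117, 0.171 and 0 FPKM and at 0.773, 0.486 and 0.442 FPKM. Of the glucose transporters, Slc2a1 was at 25.3, 17.3 and 25.9 FPKM and Slc2a3 at 0, 0.0222 and 0.0184 FPKM. The median of the 18 genes was 16.8 FPKM, and 14 exceeded 1 FPKM.

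Single lists overlapped in median, but as pooled groups the RNA-processing genes stood below the oocyte, housekeeping and mitochondrial genes. Their median rank was still above 84.4% of all symbols. Across 232 such genes, 218 exceeded 1 FPKM and the median was 24.5 FPKM, compared with 114 FPKM over 209 mitochondrial genes. The cleavage and polyadenylation factors, which make the 3' ends of mRNA, had a median of 16.9 FPKM. One gene stood far above the rest, Cpsf4l, a paralog of the CPSF subunit gene Cpsf4, at 1297, 1108 and 1290.3 FPKM. Wdr33, which helps to recognize the polyadenylation signal, was at 148, 103 and 125 FPKM and Nudt21, of cleavage factor I, at 121, 86.2 and 90.9 FPKM. Sympk, the scaffold symplekin, was at 1.45, 1.21 and 1.97 FPKM and Cpsf1 at 2.33, 1.68 and 2.02 FPKM, while Papolb, the testis poly(A) polymerase, was listed at 0.

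Among the poly(A)-binding proteins and their partners, Paip2, which inhibits poly(A)-binding protein, was at 659, 634 and 838 FPKM and Pabpn1l at 509, 376 and 499.6 FPKM. Pabpn1 itself, the nuclear poly(A)-binding protein that the study deleted in its other group, stood at 21.9 FPKM in replicate 1, 33.4 FPKM in replicate 2 and 21.8 FPKM in replicate 3, with rank 3400. Its level was above that of 84.9% of all symbols. Pabpc2 and Pabpc5, cytoplasmic members of the family, were listed at 0.

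Splicing genes spanned a wide range. Snrpe, Snrpg and Snrpd1, which encode small Sm proteins, were at 1040, 1064 and 981 FPKM, at 808, 726 and 745 FPKM and at 622, 706 and 660 FPKM. Prpf19, the ubiquitin ligase of the spliceosome, was at 0.508, 0.489 and 0.551 FPKM, low in every sample. Of the SR proteins, Tra2b was at 78.0, 73.1 and 82.8 FPKM and Srsf3 at 72.9, 79.8 and 79.7 FPKM, and Srsf12 at 0.0417, 0.0609 and 0.0252 FPKM. Hnrnpk led the hnRNP proteins at 265, 214 and 314 FPKM. The list medians were close to one another, 24.8 FPKM for the Sm and core spliceosome, 22.9 FPKM for SR proteins and 29.6 FPKM for hnRNP proteins.

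Decay and storage factors included some of the most abundant transcripts of the cell. Mphosph6, a partner of the nuclear RNA exosome, was at 2509, 2276 and 2566 FPKM, whereas the core exosome gene Exosc7 was at 163, 143 and 163 FPKM and the catalytic subunit gene Dis3 at 1.72, 3.17 and 1.67 FPKM. All 21 exosome and nuclear decay genes exceeded 1 FPKM, with a median of 36.6 FPKM. Lsm1, of the decapping activator, was at 167, 129 and 115 FPKM, and Cnot6l, a CCR4 deadenylase gene, at 46.5, 91.1 and 48.9 FPKM. Zar1, an RNA-binding protein of the maternal store, was at 698, 722 and 788 FPKM, Cpeb1, which controls cytoplasmic polyadenylation, at 169, 203 and 122 FPKM and Eif4enif1, which represses translation through eIF4E, at 136, 181 and 95.5 FPKM. The 32 storage genes had a median of 33.6 FPKM, and Igf2bp1, at 0.0558, 0.0204 and 0.00844 FPKM, was the lowest of them. Wtap, of the m6A methyltransferase complex, was at 548, 590.4 and 481 FPKM, while the demethylase gene Fto was at 2.82, 2.88 and 1.46 FPKM. Magoh, of the exon junction complex, was at 602, 604 and 560.1 FPKM, and the export factor gene Nxf3 was listed at 0.

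Paralog pairs often had one form far above the other. Of 41 pairs measured, 36 had no overlap between the samples of the higher and the lower gene, and 11 differed by over 10-fold in mean. The share without overlap among gene pairs in general was not computed, so these counts do not set paralogs apart from other pairs. Ldhb exceeded Ldha, at 1.77, 1.11 and 1.02 FPKM, 5253-fold. Cpeb1 exceeded Cpeb4 394-fold, Tet3 exceeded Tet1 110-fold, Bcl2l10 exceeded Bcl2l1 80.4-fold, Cpsf4l exceeded Cpsf4 73.0-fold and Aurkc exceeded Aurkb 40.4-fold. Pabpn1l exceeded Pabpn1 17.9-fold, from 11.3-fold in replicate 2 to 23.2-fold in replicate 1. Several of the higher genes are known for their use in oocytes or germ cells, among them Aurkc, Wee2, Pabpc1l and Ybx2. Wee2, which inhibits CDK1 in oocytes, was 7.64-fold above Wee1, Pabpc1l, an oocyte form of the cytoplasmic poly(A)-binding protein, 3.50-fold above Pabpc1, and Ybx2, a Y-box protein that stores mRNA, 2.05-fold above Ybx1.

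The reverse held for some pairs. Tbp, the general TATA-binding protein, was at 101, 89.8 and 112 FPKM, above its oocyte form Tbpl2 at 68.4, 47.0 and 37.9 FPKM. Eif4e was at 258, 234 and 293 FPKM, above Eif4e1b at 40.6, 53.1 and 37.5 FPKM. Rad21, the mitotic cohesin subunit, was at 26.0, 41.3 and 18.3 FPKM beside Rec8, which was listed at 0, so no ratio is given. The pairs with overlap were Lsm14a with Lsm14b, Taf4a with Taf4b, Smc1b with Smc1a, Cdc25b with Cdc25a and Cstf2 with Cstf2t.

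**Figure D3:**
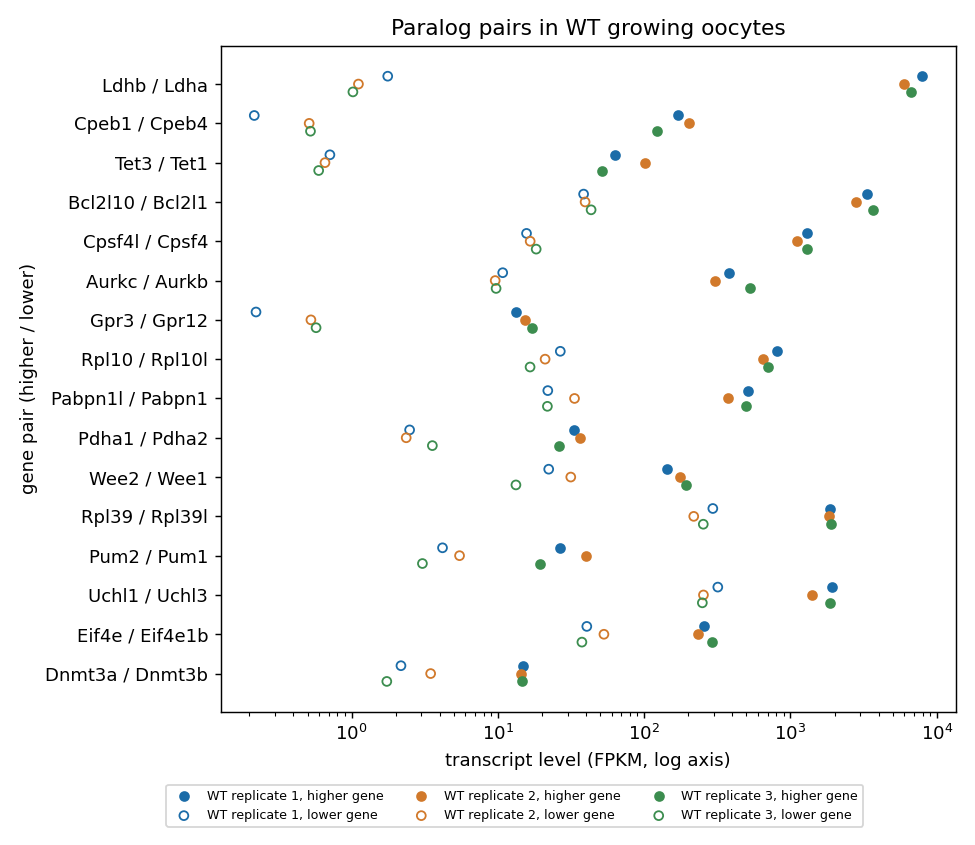
Levels of the 16 paralog pairs with the highest ratio of means and no sample at 0 (horizontal axis, FPKM, log scale); filled points are the higher gene, open points the lower gene, and colours the 3 WT samples. Filled and open points are separate in each pair, most widely for Ldhb and Ldha.

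At the low end, 4933 symbols (21.9%) were listed at 0 in every sample. Of those listed at 0, 954 (19.3%) were olfactory receptor genes. Of 1118 olfactory receptor genes, 25 exceeded 1 FPKM, with Olfr976 highest at 35.2, 51.0 and 40.0 FPKM and Olfr995 at 22.8, 17.6 and 21.0 FPKM. Of 330 vomeronasal receptor genes 6 did so, with Vmn1r65 at 45.5, 47.9 and 30.8 FPKM. Hemoglobin genes were listed at 0 in all 8 cases. Of 12 Y-linked genes, none exceeded 1 FPKM and 10 were listed at 0. These receptor genes were therefore nearly silent as families, with single members at the level of moderately expressed genes.

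Genes of other ovarian cells were low, with a few exceptions. None of the 18 theca and stroma markers exceeded 1 FPKM, and their summed level was 3.09 to 5.31 FPKM per sample. Endothelial markers exceeded it in 2 of 12 cases, Pecam1 at 5.90, 6.68 and 5.83 FPKM and Tek at 2.46, 2.99 and 2.02 FPKM, while Cdh5, Emcn, Eng and Esam were listed at 0. The summed endothelial level was 8.95 to 10.3 FPKM. Blood and immune markers exceeded it in 2 of 16 cases, C1qb at 23.4, 20.6 and 57.8 FPKM and Cd68 at 3.69, 1.97 and 1.89 FPKM, and C1qa and Tyrobp were listed at 0. Their sum was 22.7 to 60.1 FPKM.

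Granulosa markers exceeded 1 FPKM in 8 of 21 cases, with a summed level of 69.7 to 90.2 FPKM. Esr2, estrogen receptor beta, was at 29.8, 36.3 and 40.8 FPKM and Cyp19a1, aromatase, at 9.25, 13.2 and 20.3 FPKM. Amh, the defining hormone of growing follicles, and Slc38a3 were listed at 0, Foxl2, the granulosa transcription factor, was at 0.0984, 0.252 and 0.0596 FPKM, while Inha, an inhibin subunit, was at 7.24, 3.11 and 5.04 FPKM and Fshr, the receptor for follicle-stimulating hormone, at 4.86, 3.78 and 5.54 FPKM. Known granulosa genes were thus found both above 1 FPKM and at or near 0. Over these 4 cell types, 12 of 67 markers exceeded 1 FPKM and their share of the summed FPKM was 0.0186%. The part of follicle cells in any level given here was not tested, and few follicle cells cannot be told apart from little RNA per cell.

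Some genes known from distant tissues were present. Cpa1, a pancreatic carboxypeptidase, was at 597, 406 and 574 FPKM with rank 253. Vil1, the villin of the gut brush border, was at 40.4, 31.6 and 39.8 FPKM, Th, tyrosine hydroxylase of catecholamine neurons, at 36.7, 27.1 and 42.6 FPKM and Krt12, a keratin of the cornea, at 37.6, 48.6 and 57.4 FPKM. Tnni3, cardiac troponin I, was at 14.9, 24.3 and 29.5 FPKM. In each of these 5 genes every sample exceeded 1 FPKM. Krt12 belongs to the keratin list, where 11 of 103 genes had a mean above 1 FPKM. Of the 71 genes in the lists of distant tissues, which hold the other genes named here, 11 had a mean above 1 FPKM. Male germ cell genes exceeded it in 5 of 26 cases, with Ldhc, the sperm lactate dehydrogenase, at 174, 163 and 144 FPKM and Prm2, a protamine, at 21.0, 22.0 and 22.7 FPKM, whereas Prm1, Tnp1, Tnp2 and Crisp2 were listed at 0.

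Non-coding RNA was a small part of the table. Of 412 lincRNA genes, 148 exceeded 1 FPKM, and together they held 0.412% of the summed FPKM. Snhg1, a host of small nucleolar RNAs, was at 25.6, 25.4 and 24.6 FPKM and Malat1, a nuclear RNA, at 2.89, 3.44 and 4.01 FPKM, while Neat1 and Tsix were listed at 0. Xist, which coats an inactive X chromosome, was at 0.0193, 0.0564 and 0.0896 FPKM. Both X chromosomes are active in growing oocytes. The median of X-linked symbols above 1 FPKM was 0.765, 0.802 and 0.907 times that of autosomal ones in the 3 samples, a mean ratio of 0.824 ± 0.0734 (SD, n = 3). Of coding genes on the X, 40.1% exceeded 1 FPKM, compared with 42.8% to 62.8% on single autosomes. The ratio depended on the threshold. It fell to 0.675 when symbols above 0.1 FPKM were used and rose to 0.883 with those above 5 FPKM. Replicate 3 had the highest ratio.

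Level fell with transcript length, taken as that of the longest transcript of a gene in GENCODE vM1. Of the shortest of 5 equal groups of coding genes above 0 FPKM, 19.8% exceeded 100 FPKM, whereas 1.16% of the longest group did so, and the median fell from 5.25 to 2.43 FPKM. Spread between samples was also tied to level. Over 10340 symbols above 1 FPKM in every sample, the median CV was 18.8%, with quartiles of 11.8% and 27.9%. The median CV was 22.3% in the lowest of 10 equal groups by level, 24.8% in the group next to it and 11.5% in the highest group. In 280 symbols (2.71%) it exceeded 50%.

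Replicates 1 and 2 were the most alike. Across the 10340 symbols, which are not independent and share a library preparation, Spearman's rho was 0.978 for replicates 1 and 2, 0.966 for 1 and 3, and 0.956 for 2 and 3. The share of symbols over 2-fold apart was 1.85%, 5.79% and 8.48% in the same order. The difference between samples followed transcript length. Over 9728 coding symbols in 5 equal groups by length, the median ratio of replicate 2 to replicate 3 was 0.898 in the shortest group (median 1179.5 bases) and 1.44 in the longest (median 6056.5 bases). Replicate 2 was the highest sample in 11.4% of the shortest group and in 71.5% of the longest. Replicate 1 was the highest in 50.8% of the shortest group and in 12.9% of the longest.

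**Figure D4:**
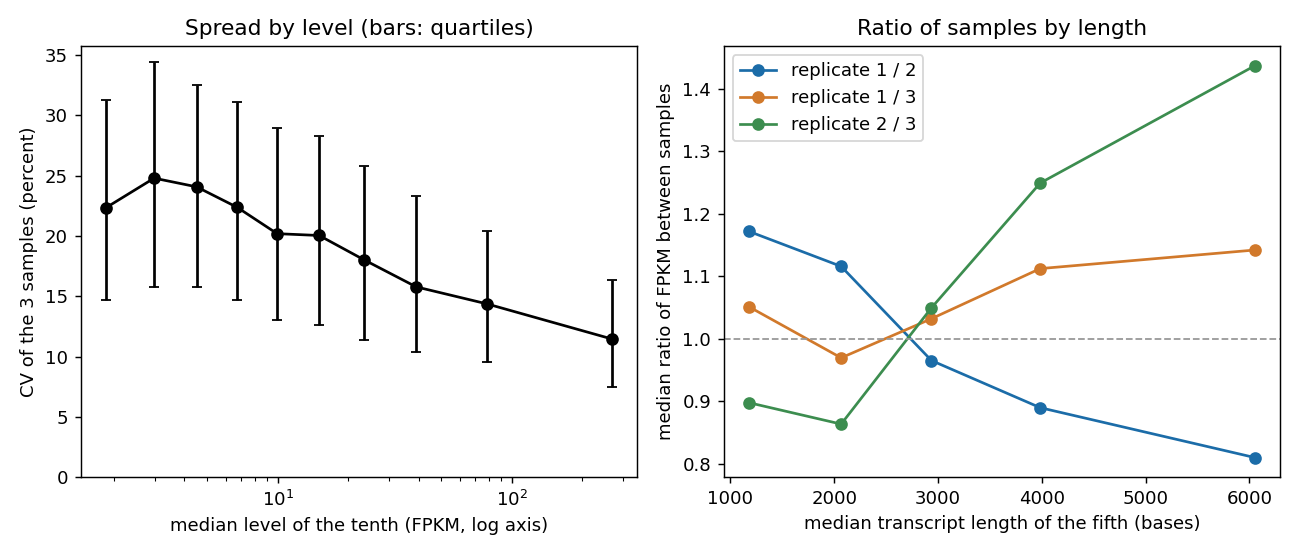
Left, CV of the 3 WT samples by level (points are medians of 10 equal groups of symbols, bars the quartiles; log axis in FPKM). Right, median ratio of FPKM between samples by transcript length in 5 equal groups of coding genes; replicate 2 over replicate 3 rises from 0.898 to 1.44 with length.

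Gene lists also differed in which sample was highest. Of 29 storage genes above 1 FPKM in every sample (median length 3560 bases), 22 were highest and 2 lowest in replicate 2, and 22 were lowest in replicate 3. Of 25 hnRNP genes (median length 2970 bases), 19 were highest in replicate 2 and 15 were lowest in replicate 3. Of 12 genes of m6A (median length 4934.5 bases), 11 were highest in replicate 2. Many coding symbols of like length had the same order. In the length groups of the hnRNP, storage and m6A medians, 40.9%, 55.3% and 71.5% of symbols were highest in replicate 2. The shares lowest in replicate 3 were 42.4%, 57.0% and 63.9%. Of 36 complex I genes (median length 971 bases), 29 were highest in replicate 1 and 22 lowest in replicate 2. In the shortest length group, 50.8% of symbols were highest in replicate 1. The histone genes did not follow this order. Of 14 histone genes (median length 678 bases), 1 was highest in replicate 1 and 9 in replicate 3. Of 7 oocyte receptor and contact genes (median length 4430.0 bases), 3 were highest in replicate 2. The share in their length group was 55.3%, and 7 genes are too few to set them apart from it. The part of transcript length in the spread of single genes was not tested.

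In 38 of 7521 symbols (0.505%) with a mean of at least 5 FPKM, the highest sample exceeded the lowest by over 4-fold on FPKM + 1. Replicate 3 stood apart in 33 of them, low in 19 and high in 14, and without it 4 were left. Gsto2, a glutathione transferase, was at 22.4, 31.2 and 0.131 FPKM, and its neighbour Ccdc147 (Cfap58 in RefSeq), 51388 bases away on chromosome 19, was at 53.2, 56.1 and 2.53 FPKM. Bfsp1, a lens filament protein, was at 19.8, 27.3 and 0 FPKM, Cst9, a cystatin, at 14.9, 14.3 and 0 FPKM and Hormad1, which marks unsynapsed meiotic chromosomes, at 23.5, 29.9 and 1.37 FPKM. Pxdn, a peroxidase of the matrix, was at 8.59, 12.4 and 0.0323 FPKM. In each of these, replicates 1 and 2 agreed within 2-fold and replicate 3 was far below them.

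The opposite was seen for Cyp2c53-ps, at 1.66, 1.81 and 33.2 FPKM, and E330012B07Rik, at 1.80, 1.89 and 33.3 FPKM, which were high in replicate 3. Replicate 2 was the lowest for Xdh, xanthine dehydrogenase, at 9.83, 1.48 and 42.8 FPKM, and for Gm9786 at 42.0, 4.36 and 86.9 FPKM. RefSeq annotates Gm9786 as a pseudogene of Oaz1, the antizyme that controls polyamines, and Oaz1 itself was at 539, 444 and 456 FPKM. Rps27 and Gm9846, which RefSeq names as a related copy (Rps27rt), were uneven in opposite ways. Rps27 was at 724, 179 and 1085 FPKM and Gm9846 at 1125, 1303 and 310.5 FPKM, whereas their sum was 1849, 1483 and 1396 FPKM. The sum was thus far more even than either copy, and reads that fit both copies cannot be told apart in the table.

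**Figure D5:**
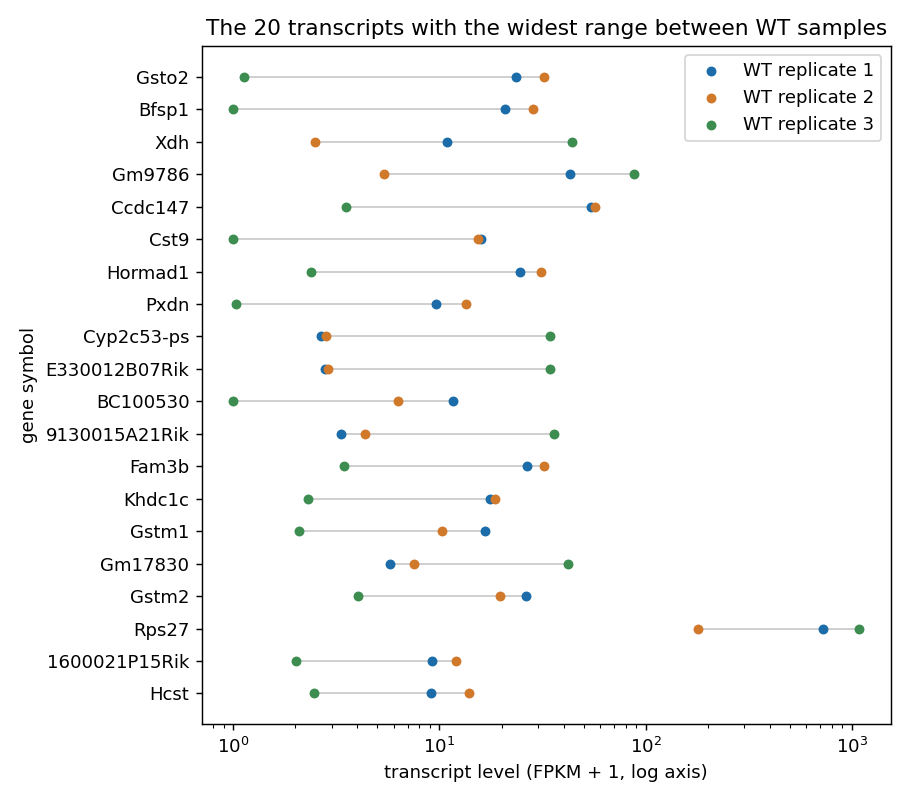
The 20 transcripts with the widest range between the WT samples (horizontal axis, FPKM + 1, log scale); points are samples and grey lines join lowest and highest. Replicate 3, in green, is the sample apart in most rows, as in Gsto2 and Bfsp1.

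At the other extreme, Ywhaz, a 14-3-3 protein gene, was at 260.0, 260.8 and 260.7 FPKM, a CV of 0.181%. Aig1 was at 245, 244 and 245 FPKM, Rpl5, a protein of the large ribosomal subunit, at 1097, 1100.2 and 1091 FPKM and Ccnc, cyclin C, at 81.6, 80.9 and 81.7 FPKM. Nop10, Rpl39, Npm1, Eif3e, Rbm3 and Mrps33 completed the 10 most even transcripts among 2177 with a mean of at least 50 FPKM, with CVs of up to 1.35%. With 3 samples, such small values are selected from many symbols and need not recur. By contrast, Actb had a CV of 24.4% and Gapdh 22.5%.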

How the data were processed

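Trimmed reads were aligned by the authors with TopHat2 2.1.1 to a combined mm9 and ERCC reference, and uniquely mapped reads over UCSC gene models were turned into FPKM by Cufflinks 2.2.1. The deposited values are FPKM with 1 added, and 1 was subtracted here. The methods describe a further scaling to the spike-in, and whether the deposited values carry it is not known. Levels of different genes were compared within samples, whereas CVs, ratios and orders of samples compare the deposited values between samples. With all samples scaled to the same total, the median CV was 18.9%. Strand use is not given in the sources used here, so overlapping and antisense genes are uncertain. The study's supplement gives total reads per sample, but read counts per symbol are unknown, so no interval is given.

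Rows of short RNA genes (names of microRNA, snoRNA and similar genes, or non-coding genes under 250 bases) were left out. Symbols were matched to GENCODE vM1 of mm9, where 93.7% had 1 gene. In 25 rows the symbol is a number, and these are not named. Means, SDs, CVs, ranks and counts were computed in Python 3.11.15 with pandas 2.3.3, and the spread measures were checked on simulated data. No test was run, because the 3 samples form 1 group. The named genes are the 6 markers, the 25 highest, up to 5 highest and 3 lowest of each list with members at 0, paralog pairs, the 10 widest and 10 most even transcripts, and Pabpn1. Genes outside this rule (Oaz1, Gm9846, some tissue genes and the families in the closing section) were chosen after their values were seen. Members, lists and pairs were chosen with earlier results of these data known. The alternatives were each sample left out, other scalings, thresholds, pseudocounts and filters, and short RNA rows kept. The values of 1 listed gene are not reported here.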

Additional observations from a re-analysis of the deposited data

How the results depend on the processing

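No paired analysis was possible because only 1 genotype group was used and no groups were compared. Of 10340 symbols above 1 FPKM in every sample, 6808 were above 5 FPKM. The ratio of X-linked to autosomal levels was 0.675 at a threshold of 0.1 FPKM and 0.883 at 5 FPKM. The count of 38 uneven transcripts became 81 with short RNA rows kept and 64 with a mean of at least 1 FPKM. With 1 sample left out in turn, it ranged from 4 (without replicate 3) to 29, and the median CV ranged from 13.9% to 18.9%. The check of gene lists covered the oocyte, housekeeping, mitochondrial and RNA-processing lists. Their number of members above the threshold stayed within 1.5 times in 242 of 243 cases. The exception was oocyte receptors with 5 members above 5 FPKM, and median percentiles of these lists shifted by at most 2.05 points. Lists of germ cell, glycolysis, pluripotency, other cell and tissue genes were not covered, and their counts can change with the threshold. For example, the theca and stroma genes Nr2f2, Acta2 and Cyp11a1 had means of 0.815, 0.609 and 0.604 FPKM. The counts of reads behind each value are unknown, 3 samples of 10 oocytes limit the precision of every SD, and values under 1 FPKM rest on few reads.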

Other observations

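Genes of protein turnover and antioxidant defence, grouped by name after their values were seen, covered a wide range of levels. Of 40 proteasome subunit genes 36 exceeded 1 FPKM and 26 exceeded 100 FPKM, and the group held 1.32% of the summed FPKM. Ubiquitin-conjugating enzymes exceeded 1 FPKM in 33 of 35 cases with a median of 36.6 FPKM, led by Ube2d3, whereas 44 of 52 ubiquitin-specific protease genes of the Usp series did so with a median of 7.30 FPKM and none exceeded 100 FPKM. All 21 Fbxw genes exceeded 1 FPKM and 13 exceeded 100 FPKM. Of 7 peroxiredoxins, which reduce peroxides, 6 exceeded 1 FPKM and 3 exceeded 100 FPKM. Of 22 glutathione transferase genes 16 exceeded 1 FPKM and 2 exceeded 100 FPKM, with a median of 8.02 FPKM. Sod1, the cytosolic superoxide dismutase, had a mean of 2043 FPKM. Genes named Zfp plus a number, mostly zinc finger genes, had a median of 3.17 FPKM over 367 genes, and 252 exceeded 1 FPKM. Of 68 replication-dependent and related histone genes, 17 exceeded 1 FPKM and 34 were listed at 0. Only transcripts with a poly(A) tail were captured, so a listing at 0 does not show that histone mRNA was absent.

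Among the short RNA rows, Mir3471-1 had a listed level of 9378, 7944 and 9845 FPKM, above every other row of the table. The mature miRNA mmu-miR-3471, with bases 2 to 8 in capitals, is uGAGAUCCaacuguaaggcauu in RefSeq on GRCm38.p6. Libraries made with oligo-dT do not measure mature miRNAs, so this value is no measure of the mature miRNA.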
